A study of Mus musculus with 6 samples.

Results

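Tristetraprolin, the protein made from *Zfp36*, and a set of other regulators of mRNA decay were examined in neutrophils of peripheral blood (PB). The set holds *Zfp36*, *Zfp36l1*, *Zfp36l2*, *Zc3h12a*, *Rc3h1*, *Elavl1*, *Auf1*, *Khsrp*, *Btg1* and *Btg2*, and was selected by gene name after earlier results on these same libraries had shown *Zfp36* to be abundant and clearly higher after ligation. The contrast between the groups therefore had a part in the choice, and the values of these genes are a description that carries no p-value. Of the 10 names, 9 were found among the 29097 genes of the deposited table. *Auf1* is not one of its gene names, and NCBI RefSeq's gene table lists it as a synonym of *Hnrnpd*, which is described beside the 9 genes but not counted with them. All 9 had a mean of at least 1 FPKM (read fragments scaled by the gene's length and the library's size) over the 6 libraries, the minimum for testing, which 10433 genes passed.

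The libraries came from CD45+CD11b+Ly6G+ cells sorted from the blood of male C57BL/6 mice aged 8 weeks, and were made by Smart-seq2, which copies full-length mRNA and amplifies it by PCR without molecular identifiers. Mice of the LIP group, called Lig in the sample labels, wore a silk ligature on the second molars for 14 d to induce periodontitis, and Ctrl mice stayed unligated for the same time. Each group has 3 libraries, each of 5 pooled mice, so an SD given here is the spread between pools. Standard errors of log2 fold changes come from the model fitted to the counts of these pools. Total counts lay between 52186555 and 57262379 per library.

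Proteins of this set decide how long an mRNA lasts once it has been made. Tristetraprolin and its relatives ZFP36L1 and ZFP36L2 bind AU-rich elements in 3′ untranslated regions (UTRs), recruit the CCR4-NOT deadenylase and so shorten the life of cytokine and chemokine mRNAs, and tristetraprolin is held inactive while it is phosphorylated through the p38 MAP kinase pathway. Regnase-1 (*Zc3h12a*) cuts, and Roquin-1 (*Rc3h1*) marks for decay, mRNAs that carry stem-loops in their 3′ UTRs. HuR (*Elavl1*) binds AU-rich elements and protects the mRNA, whereas KSRP (*Khsrp*) and AUF1 bind similar elements and mostly hasten decay. BTG1 and BTG2 join the deadenylase to poly(A)-binding protein and hold lymphocytes in a resting state.

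The optimal tristetraprolin site is the nonamer TTATTTATT, as written in DNA letters. The sites below were read from GRCm38 with the longest annotated 3′ UTR of each gene (GENCODE M21) and are shown because tristetraprolin mRNA itself, its relatives, the opposing factor HuR and 3 cytokine or enzyme mRNAs known as targets all carry them. Each run is the mRNA strand, 5′ to 3′, and capitals mark the nonamer or overlapping nonamers. They lie at chr7:28376950-28376979 (minus strand, *Zfp36*), chr12:80108166-80108195 (minus, *Zfp36l1*), chr17:84184913-84184942 (minus, *Zfp36l2*), chr1:160970043-160970072 (plus, *Rc3h1*), chr8:4285783-4285812 (minus, *Elavl1*), chr17:35199681-35199710 (minus, *Tnf*), chr5:90905336-90905365 (plus, *Cxcl2*) and chr1:150105790-150105819 (plus, *Ptgs2*).
Zfp36: tatgacgactTTATTTATTgtattaagatt
Zfp36l1: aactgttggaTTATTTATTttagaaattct
Zfp36l2: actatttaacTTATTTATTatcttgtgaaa
Rc3h1: actttactcaTTATTTATTgagatgaggag
Elavl1: tgaaaaTTATTTATTTATTTATTTATTttt
Tnf: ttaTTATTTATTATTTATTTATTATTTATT
Cxcl2: atctatgtatTTATTTATTTATTaattcca
Ptgs2: ctgaccatatTTATTTATTtatgtgaagaa

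At least 1 nonamer was present in 5 of the 9 genes. *Zfp36*, *Zfp36l1*, *Zfp36l2* and *Rc3h1* held 1 each and *Elavl1* held 8, whereas *Zc3h12a*, *Khsrp*, *Btg1* and *Btg2* held none. Among all 8589 tested genes with an annotated 3′ UTR, 7.49% held at least 1. The genes with a nonamer had longer 3′ UTRs, with a median of 2225 bases against 989.5 bases without one. Of the genes with a nonamer, 35.3% were called higher and 23.5% lower in LIP, against 28.0% and 26.9% of those without, and their median log2 fold changes were 0.03 and -0.06. The difference in length goes along with these shares, and its part in them was not tested.

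The LIP and Ctrl libraries differed widely in other respects, and every fold change below has to be read beside this. All 21 mature neutrophil genes, *Ly6g* and *Csf3r* among them, were called higher in LIP, with a median log2 fold change of 1.86 and a summed level of 65192 to 70005 CPM (counts scaled to a common library size) against 16995 to 18860 CPM in Ctrl. B cell markers were all lower (12 of 12, 1302 to 1444 against 7201 to 7751 CPM), as were T cell markers (12 of 12, 153 to 186 against 657 to 744 CPM) and erythroid markers (7 of 7 tested, 17492 to 18212 against 129256 to 137372 CPM). Haemoglobin genes took 14.6% to 15.02% of all counts in Ctrl and 1.55% to 1.61% in LIP. Monocyte markers were higher in 7 of 8 (1324 to 1406 against 612 to 725 CPM), platelet markers in 7 of 7 (2496 to 3004 against 983 to 1180 CPM), NK cell markers in 2 of 7 (608 to 649 against 540 to 640 CPM) and eosinophil and basophil markers in 1 of 5 tested (39.0 to 49.8 against 15.6 to 25.7 CPM). Of all these markers only *Klf1*, an erythroid transcription factor, had no count in any library of a group, the LIP group. In such pooled samples, fewer cells of a type and less RNA per cell cannot be told apart, and the part of these markers in the results below was not tested.

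The libraries were scaled by TMM, under which the log2 fold changes of all tested genes had a median of -0.09. It was -0.06 with median-of-ratios factors, -0.42 with library totals, -0.64 with library totals that leave out haemoglobin and immunoglobulin genes and -1.94 when the mature neutrophil genes set the scale. Under TMM, edgeR's quasi-likelihood test at a Benjamini-Hochberg adjusted p under 0.05 called 53.7% of all genes tested, 26.5% (2764 genes) higher and 27.2% (2839 genes) lower in LIP, and the libraries of the groups did not overlap for 63.4%. In the set, 7 of 9 genes were called, 5 higher and 2 lower, and the same 7 did not overlap between groups. Since the contrast entered the choice of genes, nothing is read from these counts. Without haemoglobin and immunoglobulin genes in the totals the split was 3 higher and 4 lower (1427 and 5197 of all genes), and on neutrophil genes 0 higher and 8 lower (53 and 9314 of all genes). The members' median log2 fold change was 0.57 under TMM.

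*Zfp36* (ENSMUSG00000044786, chr7:28376784-28380253, minus strand) was the most abundant gene of the set by FPKM in both groups. It stood at 1777, 1839 and 1841 CPM in the Ctrl libraries and at 7071, 6510 and 7173 CPM in the LIP libraries. The LIP values were all far above the Ctrl values, and the Ctrl values differed among themselves by little (coefficient of variation 1.996%). Its log2 fold change was 1.93 ± 0.067 (standard error), a rise of 3.804-fold and rank 227 among all genes tested. By FPKM it went from 540 ± 4.61 to 1661 ± 83.6 (SD, n = 3), and from rank 77 to rank 38 of the genes tested. The rise remained under library totals (1.61) and under totals without haemoglobin and immunoglobulin genes (1.38), but on the scale of the mature neutrophil genes its log2 fold change was 0.083 and it was not called.

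Within each library, where scaling plays no part, *Zfp36* moved with the mature neutrophil genes. Its FPKM was 2.32, 2.35 and 2.32 times the geometric mean of the 21 markers in the Ctrl libraries and 2.56, 2.25 and 2.59 times in the LIP libraries, so the groups overlapped. Of the 21 markers, 7 had a larger log2 fold change than *Zfp36* and 14 a smaller one. For each of the other 8 genes, every LIP ratio lay below every Ctrl ratio. Most genes behaved in this way, since on the scale of these markers 9314 of all 10433 genes tested were called lower. The ratios are thus no trait of these 8 genes. *Btg2* stood at 1.43 ± 0.0928 times the marker mean in Ctrl and at 0.825 ± 0.0108 times in LIP (SD, n = 3), and *Zfp36l1* at 1.43 ± 0.129 and 0.250 ± 0.0252 times. An antisense gene, *Gm44710*, overlaps 1274 bases of *Zfp36* with a mean of 1.16 FPKM, and the use of strand in counting is not given in the sources used here.

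**Figure D1:**
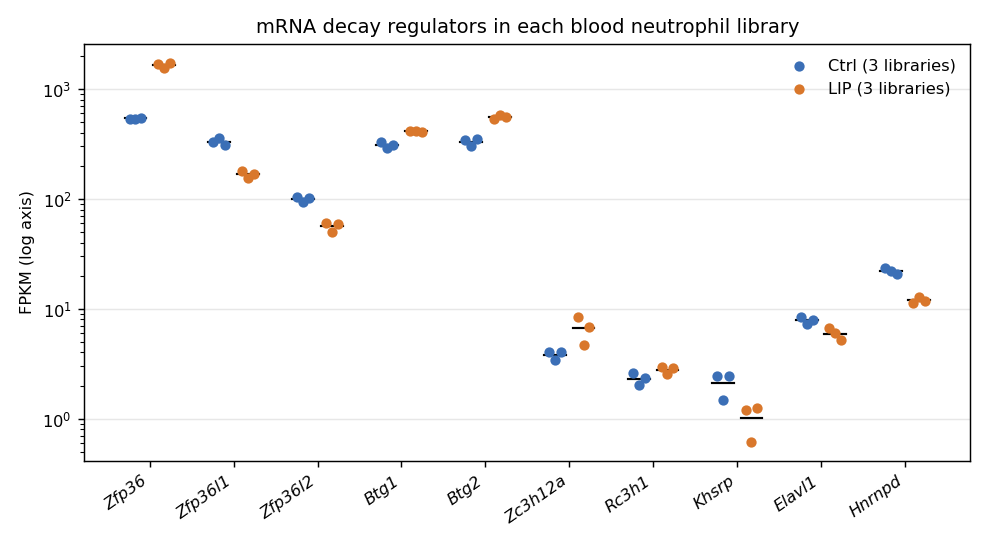
FPKM on a log axis of the 9 genes and of *Hnrnpd* in each of the 6 libraries, with blue points for Ctrl, orange points for LIP and black lines for group means. *Zfp36* rises from about 540 to 1661 FPKM, *Zfp36l1* and *Zfp36l2* lie lower in LIP, and on this scale the *Elavl1* libraries of LIP (5.20 to 6.63) lie below those of Ctrl (7.23 to 8.38), although by CPM they overlap.

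The relatives of *Zfp36* were lower in LIP. *Zfp36l1* (ENSMUSG00000021127, chr12:80107754-80113013, minus strand), which restrains cell cycle entry in developing lymphocytes, had 936, 1056 and 897 CPM in Ctrl and 652, 559 and 599 CPM in LIP. *Zfp36l2* (ENSMUSG00000045817, chr17:84183931-84187947, minus strand), which acts with it in lymphocyte development, had 349, 325 and 352 CPM in Ctrl and 255, 212 and 248 CPM in LIP. Neither gene's groups overlapped, and the log2 fold changes of -0.68 ± 0.097 and -0.52 ± 0.105 kept their sign under each of the 5 scalings, down to -2.52 and -2.37 on the neutrophil genes. B and T cell markers fell in the same libraries by more, with median log2 fold changes of -2.53 and -2.42. The part of such cells in the falls of *Zfp36l1* and *Zfp36l2* was not tested. An antisense gene, *Gm36279*, overlaps *Zfp36l2* at a mean of 0.751 FPKM.

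The make-up of the family in the libraries therefore shifted toward *Zfp36*. Of the summed FPKM of the 3 genes, it took 55.6% ± 1.35 (SD, n = 3) in Ctrl libraries and 88.1% ± 0.503 in LIP libraries, while the share of *Zfp36l1* was 34.1% ± 1.99 and 8.91% ± 0.412 and that of *Zfp36l2* 10.3% ± 0.726 and 2.98% ± 0.139. The ratio of *Zfp36* to *Zfp36l1* was 1.63 ± 0.134 in Ctrl and 9.90 ± 0.503 in LIP. The summed FPKM of the family was 972.5 ± 16.9 and 1886 ± 97.7. These shares and the ratio are taken within a library, so no scaling changes them, but the cells that make up a library can. Median log2 fold changes were 1.86 for mature neutrophil genes and -2.53 and -2.42 for B and T cell markers. Their part in the shares was not tested. With counts in place of FPKM, the share differed by 30.9 percentage points between groups in place of 32.5 points.

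**Figure D2:**
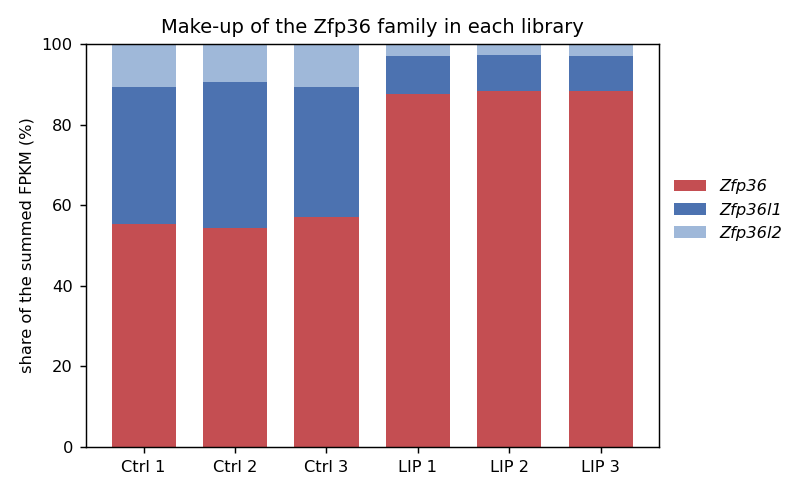
Share of *Zfp36*, *Zfp36l1* and *Zfp36l2* in their summed FPKM, in percent, as one stacked bar per library for 3 Ctrl and 3 LIP libraries. *Zfp36* makes up a mean of 55.6% of the bar in Ctrl and 88.1% in LIP.

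The promoter of *Zfp36* is shown because it is known as a quick-response promoter, and that of *Btg2* because *Btg2* was the other gene called higher at high abundance with a motif match. Entries of RefSeq's promoter table (GRCm38.p6, 250 bases before to 50 after the start) matched 8 of the 9 genes and *Hnrnpd*. Both strands were searched for TTCNNNGAA (a GAS element, bound by STAT factors), TGACTCA (AP-1), TGACGTCA (CRE), the CArG box of serum response factor and the NF-kappaB consensus, none of which overlap in the runs shown. The run from *Zfp36*, chr7:28379229-28379328 on the minus strand, covers the 100 bases before the start, with a CArG box that begins 58 bases and a GAS match that begins 17 bases before it in capitals. The run from *Btg2*, chr1:134079256-134079355 on the minus strand, holds a CRE that begins 166 bases before the start in capitals.
Zfp36: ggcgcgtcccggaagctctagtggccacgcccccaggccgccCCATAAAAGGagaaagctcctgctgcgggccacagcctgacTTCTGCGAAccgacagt
Btg2: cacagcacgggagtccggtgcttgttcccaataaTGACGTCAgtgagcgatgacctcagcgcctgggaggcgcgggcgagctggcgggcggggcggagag

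Of all 32851 promoters in the table, 1.63% held a CArG box, 8.30% a GAS match, 1.79% a CRE, 5.20% an AP-1 match and 8.46% an NF-kappaB match. *Rc3h1* held an AP-1 match 133 bases before its start and *Hnrnpd* a CArG box at its start. None of these motifs was found in this window for *Btg1*, *Elavl1*, *Khsrp*, *Zc3h12a* or *Zfp36l1*. A match is a description of the letters only.

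Both antiproliferative BTG genes were called higher in LIP. *Btg1* (ENSMUSG00000036478, chr10:96617006-96622809, plus strand) had 1661, 1501 and 1593 CPM in Ctrl and 2668, 2615 and 2564 CPM in LIP. *Btg2* (ENSMUSG00000020423, chr1:134075170-134079120, minus strand), a p53 and immediate-early target, had 899, 818 and 931 CPM in Ctrl and 1777, 1913 and 1810 CPM in LIP. The groups did not overlap for either gene, and LIP libraries lay close together (coefficients of variation 1.97% and 3.86%). The log2 fold changes were 0.72 ± 0.071 and 1.05 ± 0.081 under TMM, and they turned to -1.12 and -0.79 on the neutrophil genes. Within libraries, *Btg2* stood at 1.07 ± 0.0459 times *Btg1* by FPKM in Ctrl and 1.35 ± 0.0635 times in LIP (SD, n = 3).

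The endonuclease Regnase-1 and the stem-loop binder Roquin-1 were expressed at far lower levels and were also called higher under TMM. *Zc3h12a* (ENSMUSG00000042677, chr4:125118423-125127840, minus strand) had 11.01, 9.75 and 11.2 CPM in Ctrl and 29.5, 16.2 and 23.6 CPM in LIP. Its LIP libraries were spread widely, although the lowest lay above every Ctrl library, and the log2 fold change was 1.11 ± 0.257, or 0.90 to 1.32 with 1 library left out. *Rc3h1* (ENSMUSG00000040423, chr1:160906418-160974978, plus strand) had 28.3, 22.6 and 26.0 CPM in Ctrl and 40.4, 35.01 and 39.1 CPM in LIP, and a log2 fold change of 0.57 ± 0.168. *Rc3h1* was no longer called with library totals (0.25), neither gene with totals that leave out haemoglobin and immunoglobulin genes (0.57 for *Zc3h12a*, 0.027 for *Rc3h1*), and on the neutrophil genes both were lower (-0.72 and -1.27).

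The remaining AU-rich element binders were not called higher under any scaling. *Elavl1* (ENSMUSG00000040028, chr8:4285382-4325413, minus strand) had 82.8, 73.7 and 80.2 CPM in Ctrl and 82.9, 73.9 and 64.5 CPM in LIP, with overlapping groups and a log2 fold change of -0.10 ± 0.132. *Khsrp* (ENSMUSG00000007670, chr17:57021051-57031522, minus strand) had 10.1, 6.28 and 10.2 CPM in Ctrl and 6.31, 3.22 and 6.44 CPM in LIP, and a log2 fold change of -0.73 ± 0.368. *Khsrp* had the widest spread of the set, its highest LIP library passed its lowest Ctrl library, and neither gene was called under TMM, which does not show that they stayed level. Both were called lower with library totals (-0.42 and -1.06). *Hnrnpd* (ENSMUSG00000000568, chr5:99955935-99978938, minus strand), the AUF1 gene, had 165, 161 and 149 CPM in Ctrl and 101, 112 and 103 CPM in LIP, without overlap, and a log2 fold change of -0.59 ± 0.109. By FPKM, *Zfp36* exceeded *Elavl1* by a factor of 69.1 ± 5.21 in Ctrl and 283 ± 42.4 in LIP.

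**Figure D3:**
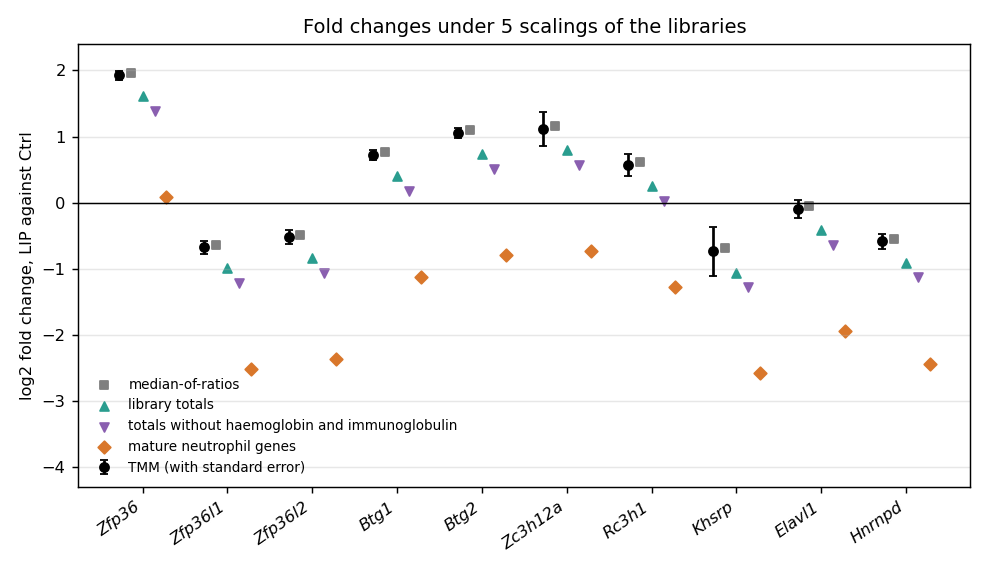
Log2 fold change of LIP against Ctrl for the 9 genes and *Hnrnpd* under 5 scalings of the libraries, with the standard error on the TMM value. Each scaling moves all genes by about the same amount, and on mature neutrophil genes *Btg1*, *Btg2*, *Zc3h12a* and *Rc3h1* change sign and *Zfp36* lies at 0.083.

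By FPKM, which takes gene length into account, the order in Ctrl was *Zfp36* (540), *Zfp36l1* (332), *Btg2* (332), *Btg1* (310), *Zfp36l2* (93.6 to 104), *Elavl1* (7.85), *Zc3h12a* (3.81), *Rc3h1* (2.32) and *Khsrp* (2.11). Neighbours whose Ctrl libraries overlapped were *Zfp36l1* and *Btg2*, *Btg2* and *Btg1*, and *Rc3h1* and *Khsrp*. In LIP the order was *Zfp36* (1661), *Btg2* (557), *Btg1* (413), *Zfp36l1* (168), *Zfp36l2* (56.2), *Zc3h12a* (6.66), *Elavl1* (5.93), *Rc3h1* (2.78) and *Khsrp* (1.02), with overlap only between *Zc3h12a* and *Elavl1*. The 9 genes together took 0.623% to 0.653% of all counts in Ctrl and 1.06% to 1.13% in LIP.

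The genes whose pattern over the 6 libraries was most like that of *Zfp36* were *Gda*, *Grina*, *Rab32*, *Cebpd* and *Flot1*, among 3385 genes with a mean of at least 10 FPKM. Their root mean square differences from *Zfp36* in centred log2 CPM were 0.054, 0.055, 0.069, 0.072 and 0.073. Their log2 fold changes were 1.93, 1.94, 1.89, 1.83 and 1.89, against 1.93 for *Zfp36*. Likeness here is thus largely a like difference between the groups, and that contrast had a part in the choice of *Zfp36*. *Grina* was the most abundant of them by mean FPKM, at 1023 ± 58.5 CPM in Ctrl and 3931 ± 68.4 CPM in LIP (SD, n = 3). *Cebpd*, a transcription factor of the myeloid lineage, stood at 168 ± 10.3 and 597 ± 8.06 CPM.

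In each list of decay enzymes more genes were called lower than higher in LIP under TMM, beside 27.2% lower and 26.5% higher among all genes tested. In the deadenylation list (CCR4-NOT, PAN2-PAN3, PARN and relatives of TOB and BTG), 1 of 18 tested genes was called higher and 7 were called lower (median log2 fold change -0.38). *Tob1*, an antiproliferative adaptor of the deadenylase, rose from 20.9 ± 5.09 to 48.0 ± 5.80 CPM (SD, n = 3), with a log2 fold change of 1.198 ± 0.210 and an adjusted p of 0.0008. *Pabpc1*, the poly(A)-binding protein and the most abundant gene of the list by mean FPKM, fell from 261 ± 15.5 to 143 ± 5.43 CPM (-0.87 ± 0.102, adjusted p = 5.1e-05). *Btg3* fell as well, from 31.8 ± 1.54 to 14.4 ± 4.001 CPM (-1.14 ± 0.231, adjusted p = 0.002). These p-values and those that follow are from edgeR's quasi-likelihood test, adjusted over all genes tested.

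In the list of decapping and 5′ to 3′ decay, 1 of 17 genes was called higher and 7 lower (median -0.64). The gene called higher was *Ddx6*, a helicase of processing bodies, at 168 ± 24.8 CPM in Ctrl and 281 ± 30.6 CPM in LIP (0.74 ± 0.132, adjusted p = 0.00085). The genes called lower included several LSm subunits, of which *Lsm4* had 71.5 ± 8.15 and 37.2 ± 4.12 CPM (-0.94 ± 0.150, adjusted p = 0.00041) and *Lsm6* 32.0 ± 2.05 and 16.0 ± 1.13 CPM (-0.997 ± 0.180, adjusted p = 0.00094). *Lsm5* was lower too, at -1.31 ± 0.368 (adjusted p = 0.012). In the exosome and SKI list, whose products degrade RNA from its 3′ end, 1 of 14 was called higher and 7 lower (median -0.97). *Exosc8* fell from 43.6 ± 3.11 to 11.6 ± 0.702 CPM (-1.91 ± 0.175, adjusted p = 8.5e-06) and *Exosc10* from 43.5 ± 9.73 to 21.4 ± 7.62 CPM (-1.03 ± 0.274, adjusted p = 0.0093). *Skiv2l*, the SKI helicase, was the gene called higher (0.85 ± 0.240, adjusted p = 0.012), with Ctrl libraries spread from 27.1 to 59.7 CPM. With library totals, whole or without haemoglobin and immunoglobulin genes, 0 genes of this list were called higher. *Exosc3*, the most abundant of the list by mean FPKM, was not called under TMM (-0.37 ± 0.179, adjusted p = 0.10).

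Of 10 genes of nonsense-mediated decay, which removes mRNAs with early stop codons, 4 were called lower and 0 higher (median -0.57). With DESeq2, 1 was called higher and 4 were called lower. Without Ctrl replicate 1, Ctrl replicate 3 or LIP replicate 2, the number called lower was 2. *Smg8*, highest by mean FPKM at 4.428 but close to *Upf2* at 4.425, was not called (-0.62 ± 0.272, adjusted p = 0.077). Among other RNA-binding regulators, 5 of 18 were called higher and 7 lower (median -0.23), or 4 lower without LIP replicate 3. *N4bp1*, an RNase related to Regnase-1, rose from 56.6 ± 8.26 to 145 ± 2.49 CPM (1.36 ± 0.132, adjusted p = 1.3e-05). *Arid5a*, which protects inflammatory mRNAs from Regnase-1, rose from 282 ± 10.9 to 558 ± 10.04 CPM (0.99 ± 0.087, adjusted p = 6.7e-06). *Pcbp1*, the most abundant of the list by mean FPKM, fell from 298 ± 26.5 to 225 ± 20.7 CPM (-0.41 ± 0.112, adjusted p = 0.011). On the neutrophil genes, 0 genes of these 5 lists were called higher, beside 53 of all 10433 genes tested. The rises of *Tob1*, *Ddx6*, *Skiv2l*, *N4bp1* and *Arid5a* were therefore not called there.

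**Figure D4:**
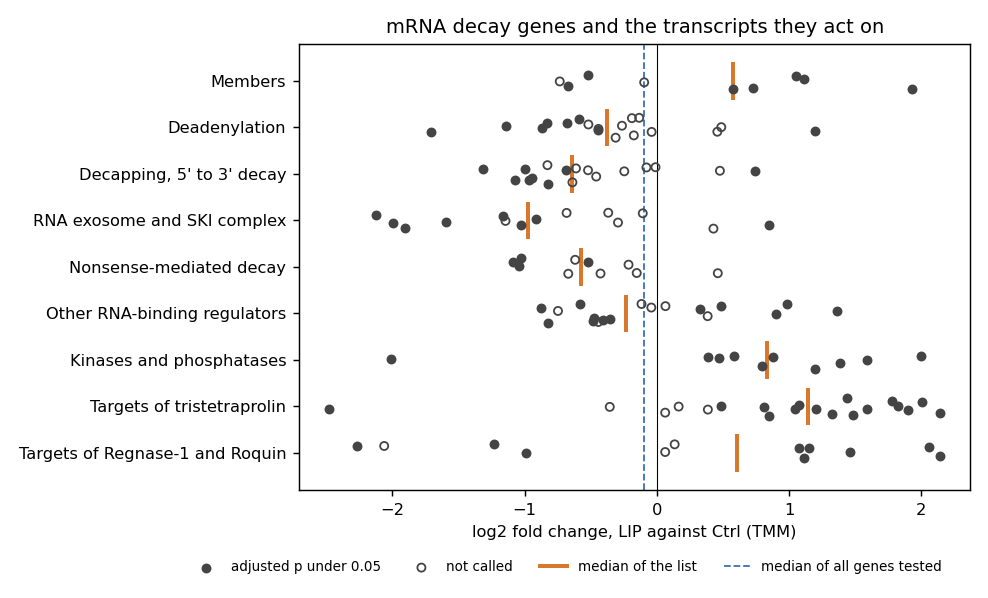
Log2 fold change under TMM for each gene of the set and of 8 lists, 1 point per gene, filled where the adjusted p is under 0.05, with orange bars at list medians and a dashed line at the median of all genes tested (-0.09). Lists of decay enzymes lie to the left and kinases and targets to the right, whereas on the scale of mature neutrophil genes most of these genes lie lower in LIP. On that scale 9314 of all 10433 genes tested were called lower.

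Most genes whose products act on tristetraprolin protein or its kinases were called higher under TMM. Of 10 tested kinases and phosphatases, 9 were called higher and 1 lower (median 0.84), beside 26.5% and 27.2% of all genes tested. *Mapk13*, a p38 kinase, rose from 24.2 ± 2.04 to 96.4 ± 17.5 CPM (1.996 ± 0.164, adjusted p = 3.8e-06). *Dusp1*, the phosphatase that shuts off p38 and the most abundant of the list by mean FPKM, rose from 5610 ± 510 to 16861 ± 859 CPM (1.59 ± 0.075, adjusted p = 1.6e-07). The p38 kinase gene called lower was *Mapk11*, which is named outside the rule for named genes because it is the only one (-2.01 ± 0.380, adjusted p = 0.0013). With totals that leave out haemoglobin and immunoglobulin genes 4 were called higher, and on the neutrophil genes 0 were called higher and 9 lower, where 9314 of all 10433 genes tested were called lower.

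Among transcripts known as tristetraprolin targets, 15 of 20 tested were called higher and 1 lower in LIP under TMM (median 1.14), beside 26.5% and 27.2% of all genes tested. *Dusp1*, counted above with the phosphatases, is also among these 20. *Cxcl2*, a neutrophil chemokine and the most abundant of them by mean FPKM, rose from 4454 ± 292 to 15238 ± 358 CPM (1.77 ± 0.064, adjusted p = 5.2e-08). *Ier3*, an early-response gene, rose from 97.1 ± 13.2 to 428 ± 23.0 CPM (2.14 ± 0.122, adjusted p = 4.1e-07). *Ptgs2*, the inducible cyclooxygenase, rose from 338 ± 137 to 1360 ± 330 CPM (2.01 ± 0.265, adjusted p = 0.00011). The target called lower was *Myc*, a driver of proliferation, at 230 ± 25.9 and 41.2 ± 4.17 CPM (-2.48 ± 0.134, adjusted p = 3.2e-07). On the neutrophil genes, 1 of the 20 was called higher and 13 lower, beside 53 and 9314 of all 10433 genes tested.

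The targets were also counted by whether they hold the nonamer. All 9 tested targets with a nonamer in the 3′ UTR were called higher under TMM (median 1.48), and of the 11 without one, 6 were called higher and 1 lower (median 0.48). Among all tested genes with an annotated 3′ UTR, 35.3% of those with a nonamer were called higher and 23.5% lower. Of those without one, 28.0% were called higher and 26.9% lower. On the neutrophil genes only 1 of the 20 targets was called higher and 13 were called lower. The list was written with earlier results of these libraries known, no test of this difference was made, and *Ier3* and *Il1b* rose without a nonamer. In the tandem repeats shown above, *Tnf* holds 4 overlapping nonamers and *Cxcl2* 2, and their whole 3′ UTRs hold 5 and 4. Their log2 fold changes were 1.08 and 1.77.

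**Figure D5:**
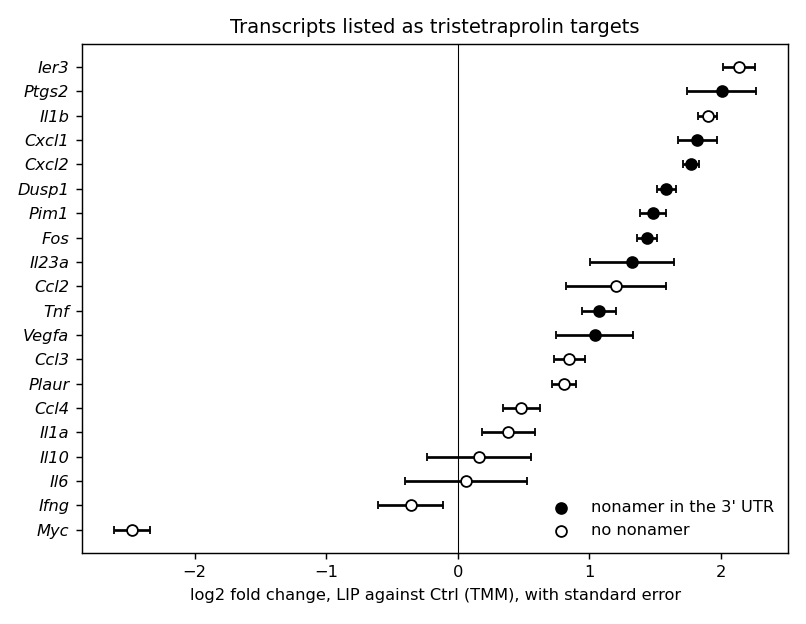
Log2 fold change under TMM with standard error for the 20 tested transcripts listed as tristetraprolin targets, filled where the 3′ UTR holds at least 1 nonamer. The 9 filled points all lie above 0 and *Myc* is the lowest. On the scale of mature neutrophil genes 13 of the 20 were called lower, beside 9314 of all 10433 genes tested.

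Of 12 tested targets of Regnase-1 and Roquin, 6 were called higher and 3 lower under TMM (median 0.61), beside 26.5% and 27.2% of all genes tested. On the neutrophil genes, 1 was called higher and 10 lower, beside 53 and 9314 of all 10433 genes tested. *Nfkbiz*, an inducible NF-kappaB cofactor and the most abundant of them by mean FPKM, rose from 1253 ± 86.0 to 3450 ± 86.7 CPM (1.46 ± 0.076, adjusted p = 2.5e-07). *Lcn2*, an iron-binding granule protein, rose from 356 ± 40.3 to 1487 ± 85.4 CPM (2.06 ± 0.103, adjusted p = 2.1e-07). Of the tested tristetraprolin targets, *Ier3*, *Tnf* and *Il6* are on this list too, and *Zc3h12a* is itself one of its members. The 3 called lower, named after their values were seen, were the T cell genes *Icos* (-1.23) and *Ctla4* (-0.99) and the transferrin receptor gene *Tfrc* (-2.27). Median log2 fold changes in the same libraries were -2.42 for T cell markers and -3.00 for erythroid markers. The part of such cells in these falls was not tested.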

How the data were processed

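Per the labels, PB neutrophil cDNA was sequenced paired-end, and the submitters' processing notes name cutadapt 1.9, FastQC and GRCm38. The aligner, the counting tool and the use of strand are not given in the sources used here. Reads per gene were deposited by the authors as raw counts, together with FPKM values that the authors made from them. Groups and replicate numbers came from the labels. Names on several rows (50) were represented by the row with the higher mean FPKM. Genes with a mean of at least 1 FPKM were tested on counts with edgeR 4.0.16 (R 4.3.3), by quasi-likelihood F test with TMM and no replicate block. Adjustment was by Benjamini-Hochberg over 10433 genes, and a standard error is the size of the log2 fold change over the root of F. CPM values are TMM-scaled. Alternatives used limma 3.58.1 on log2(FPKM + 1) and log2(FPKM + 0.1), DESeq2 1.42.0, other scalings and filters, and each library left out. The edgeR, limma and DESeq2 tests were tried on simulated counts in which only a small part of the genes differed. Such counts cannot check the choice of scaling, and the lists and sequence searches were not part of that trial. Chi-square per gene between libraries of 1 group ran from 51.8 to 126, far above sampling noise. The common biological coefficient of variation was 0.265. The members and all gene lists were chosen with earlier results of these data known, as were the sites and promoter stretches shown. Named genes are the members, *Hnrnpd*, the 5 genes most like *Zfp36*, and in each list the most abundant gene and up to 2 called genes at either end with a mean of at least 5 FPKM. A result that this rule would name is not reported here.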

Additional observations from a re-analysis of the deposited data

How the results depend on the processing

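The calls of the members rest on how the libraries are scaled. With library totals in place of TMM the log2 fold changes were 1.61 for *Zfp36*, -0.995 for *Zfp36l1*, -0.84 for *Zfp36l2*, 0.79 for *Zc3h12a*, 0.25 for *Rc3h1*, -0.42 for *Elavl1*, 0.40 for *Btg1* and 0.73 for *Btg2*. With totals that leave out haemoglobin and immunoglobulin genes they were 1.38, -1.22, -1.07, 0.57, 0.027, -0.64, 0.18 and 0.51 in that order, and -1.28 for *Khsrp*. On mature neutrophil genes they were 0.083, -2.52, -2.37, -0.72, -1.27, -1.94, -1.12 and -0.79, and -2.57 for *Khsrp*. These scalings shift all genes by a nearly constant amount by construction. Limma gave 1.62, -0.98, -0.82, 0.64, 0.19, -0.36, 0.42 and 0.75 on log2(FPKM + 1), and 1.62, -0.98, -0.83, 0.75, 0.26, -0.40, 0.42 and 0.75 on log2(FPKM + 0.1), again from *Zfp36* to *Btg2*. With a minimum of 5 FPKM, under which *Rc3h1* and *Khsrp* were not tested, *Zfp36* stood at 1.76, *Zfp36l1* at -0.84, *Zfp36l2* at -0.69, *Elavl1* at -0.26, *Btg1* at 0.56 and *Btg2* at 0.89. The *Zfp36* share of the family differed by 30.9 percentage points by counts.

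Counts of calls moved by over 1.5 times as follows, with lists in the order of the report. Library totals gave 4 members lower, 11 deadenylation and 12 decapping genes lower, 0 exosome genes higher and 11 lower, 7 nonsense-mediated decay genes lower, 3 other RNA-binding regulators higher, 5 kinases and phosphatases higher and 2 tristetraprolin targets lower. Totals without haemoglobin and immunoglobulin genes gave 1427 of all genes higher and 5197 lower, 3 members higher and 4 lower, 15 deadenylation genes lower, 0 decapping genes higher and 15 lower, 0 exosome genes higher and 12 lower, 9 nonsense-mediated decay genes lower, 2 other regulators higher and 11 lower, 4 kinases and phosphatases higher, and 2 tristetraprolin targets and 5 Regnase-1 and Roquin targets lower. Scaling on mature neutrophil genes gave 53 of all genes higher and 9314 lower, 0 members higher and 8 lower, and in the lists 0 higher and 18 lower (deadenylation), 0 and 17 (decapping), 0 and 14 (exosome), 10 lower (nonsense-mediated decay), 0 and 18 (other regulators), 0 and 9 (kinases and phosphatases), 1 and 13 (tristetraprolin targets) and 1 and 10 (Regnase-1 and Roquin targets). Limma gave 12 decapping genes lower with a pseudocount of 1 and 11 with 0.1, and with both 0 exosome genes higher, 7 nonsense-mediated decay genes lower, 3 other regulators higher and 2 tristetraprolin targets lower. A minimum of 5 FPKM, with fewer genes tested, gave 1768 of all genes higher and 1868 lower, 4 deadenylation and 3 exosome genes lower, 0 nonsense-mediated decay genes lower because 0 of them were tested, 3 other regulators higher, and 0 kinases and phosphatases and 0 Regnase-1 and Roquin targets lower. No filter gave 4 decapping genes lower, 0 exosome genes higher and 4 lower, 2 nonsense-mediated decay genes and 3 other regulators lower, and 2 kinases and phosphatases lower. filterByExpr gave 2 nonsense-mediated decay genes and 2 kinases and phosphatases lower. DESeq2 gave 2 deadenylation genes and 1 nonsense-mediated decay gene higher. Beyond the scalings by construction and the smaller gene table, the cause was not tested.

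With 1 library left out, 5 members were called higher and 2 lower each time, nonsense-mediated decay genes called lower numbered 2 to 3 (2 without Ctrl replicate 1, Ctrl replicate 3 or LIP replicate 2), and other regulators called lower 4 to 7 (4 without LIP replicate 3). With the replicate number as a replicate block, 2723 genes were called higher and 2823 lower, and no member's call changed. Same-numbered libraries correlated in their deviations at 0.014, 0.054 and 0.031, and 5 of the 6 libraries correlated best with their own number. The labels give no shared animals or day, so whether same-numbered libraries share more than a number is not known. The lowest count of a member was 164, for *Khsrp*, and reads without molecular identifiers do not show how many molecules were sampled.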
